A study of Mus musculus with 5 samples.

Results

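The 8 genes described here are the ZIC factors Zic1, Zic2, Zic4 and Zic5 and the HOX cofactors Meis1, Meis2, Meis3 and Pbx3, taken by their symbols from the 25414 genes listed in the RNA-seq files. Their levels were compared between mouse neural stem cells (NSCs), sequenced in 2 replicates, and STO cells, sequenced in 3. NSCs were primary cells taken from the cortex of E12.5 embryos and grown as a monolayer with EGF and bFGF for 5 to 8 passages. STO is a thioguanine- and ouabain-resistant line of SIM embryonic fibroblasts, used elsewhere in the study as feeder cells and here after more than 30 passages in medium with serum. C57BL/6 was given as the strain of both, no genetic change was listed for the NSCs, and origin, medium and passage number differed together with cell type. Nothing in the labels says that replicates came from separate cultures, so p-values measure the spread between these samples, which may be technical.

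ZIC proteins are zinc finger transcription factors related to the GLI factors, and they are known for their part in patterning the neural tube and the dorsal midline of the brain. MEIS and PBX proteins belong to the TALE homeodomain class. They bind DNA together, alone or with HOX proteins, and so are known as HOX cofactors. In the forebrain, where HOX genes are not normally used, MEIS and PBX proteins also act with other partners.

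The labelled cell types were checked against their defining markers. Levels are given in FPKM, a unit that scales fragments by transcript length and library depth. The 5 NSC markers Nes, Sox2, Pax6, Olig2 and Fabp7 summed to 3772 and 3985 FPKM in NSCs. Fabp7, the highest, gave 2783 and 3041 FPKM of this sum, and Pax6, the lowest, 5.04 and 5.22 FPKM. In STO cells the 5 markers summed to at most 0.0724 FPKM. The 6 fibroblast markers summed to 5.05 and 5.12 FPKM in NSCs and 1352 to 1462 FPKM in STO cells. Among factors of the dorsal forebrain, Lhx2 (20.7 and 20.6 FPKM) and Emx2 (9.79 and 10.4 FPKM) were present in NSCs. The cortical factors Emx1, Tbr1 and Eomes were at most 0.0495 FPKM there. Of 6 factors of the ventral forebrain, Gsx1 was at 11.7 and 12.1 FPKM in NSCs and Gsx2 at 1.29 FPKM on average. Dlx1, Dlx2, Dlx5 and Nkx2-1 were at most 0.282 FPKM in NSCs. Of 6 midbrain and hindbrain factors, Gbx2 was at 1.85 and 2.24 FPKM and En2 at 0.971 and 1.14 FPKM in NSCs. En1, Pax2, Pax3 and Pax7 were at most 0.0498 FPKM there. Of the forebrain factors, STO cells held Emx2 at 14.6 FPKM or more in each replicate, Dlx1 at 16.2 FPKM and Dlx2 at 20.2 FPKM on average. Tbr1 averaged 0.258 FPKM there, and Lhx2, Emx1, Eomes, Dlx5, Gsx1, Gsx2 and Nkx2-1 averaged at most 0.0499 FPKM. Of the midbrain and hindbrain factors, Pax3 averaged 2.18 FPKM in STO cells and the others at most 0.00418 FPKM.

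Zic1, Zic2 and Zic5 were at 18.5, 13.1 and 2.90 FPKM on average in NSCs and at or near 0 in STO cells, and Zic4 was at 0.280 FPKM in NSCs and listed at 0 in STO cells. The MEIS factors split, with Meis1 higher in STO cells and Meis2 and Meis3 lower, and Pbx3 was slightly higher in STO cells. FPKM values were summed over the RefSeq transcripts of a gene, and a 0 means that the gene was listed at 0. The test was limma on log2(FPKM + 1) with Benjamini-Hochberg adjustment over the 12292 genes whose mean reached 1 FPKM in either cell type, and an adjusted p-value below 0.05 counted as a difference. Of the 8 genes, 7 entered the test, with 2 higher and 5 lower in the STO line, and their median difference in log2(FPKM + 1) was -1.95. Over all 12292 genes, 41.9% passed as higher and 43.7% as lower, with a median difference of -0.023, so that passing the test was common among expressed genes. The 3 tested ZIC genes and Meis3 reached the minimum through NSCs alone, so their direction was fixed by the filter. RNA was measured in bulk, so fewer cells that express a gene and less of its RNA per cell cannot be told apart.

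The promoters of both members of the neighbouring pair Zic1 and Zic4 and of the MEIS genes that moved in opposite directions are shown so that their base composition can be compared. Each runs from 250 bases before to 50 bases after a RefSeq start site (table for GRCm38.p6) in the direction of transcription, and each matched the mm9 genome exactly at 1 place. Capitals mark CpG dinucleotides. The Zic1 promoter lay at chr9:91260557-91260856 on the minus strand, that of Zic4 at chr9:91263560-91263859 on the plus strand, that of Meis1 at chr11:18918923-18919222 on the minus strand and that of Meis2 at chr2:115890306-115890605 on the minus strand.
Zic1: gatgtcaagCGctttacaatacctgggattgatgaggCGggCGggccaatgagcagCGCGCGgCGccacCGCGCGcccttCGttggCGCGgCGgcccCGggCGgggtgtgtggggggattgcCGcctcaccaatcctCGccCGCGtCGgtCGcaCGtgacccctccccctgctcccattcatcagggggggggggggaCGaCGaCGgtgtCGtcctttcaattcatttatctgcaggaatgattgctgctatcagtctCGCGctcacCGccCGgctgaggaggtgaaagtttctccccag
Zic4: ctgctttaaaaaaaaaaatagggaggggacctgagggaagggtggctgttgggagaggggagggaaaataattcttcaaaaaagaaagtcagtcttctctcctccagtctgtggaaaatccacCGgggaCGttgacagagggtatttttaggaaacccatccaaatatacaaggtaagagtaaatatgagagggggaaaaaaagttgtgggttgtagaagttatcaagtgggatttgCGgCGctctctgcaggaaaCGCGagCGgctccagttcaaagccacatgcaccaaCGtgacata
Meis1: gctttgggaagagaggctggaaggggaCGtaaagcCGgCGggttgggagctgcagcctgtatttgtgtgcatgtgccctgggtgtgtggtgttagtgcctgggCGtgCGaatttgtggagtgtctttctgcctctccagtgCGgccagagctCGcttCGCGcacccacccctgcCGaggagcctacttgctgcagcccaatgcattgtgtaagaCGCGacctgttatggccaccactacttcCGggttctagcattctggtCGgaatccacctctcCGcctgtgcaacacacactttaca
Meis2: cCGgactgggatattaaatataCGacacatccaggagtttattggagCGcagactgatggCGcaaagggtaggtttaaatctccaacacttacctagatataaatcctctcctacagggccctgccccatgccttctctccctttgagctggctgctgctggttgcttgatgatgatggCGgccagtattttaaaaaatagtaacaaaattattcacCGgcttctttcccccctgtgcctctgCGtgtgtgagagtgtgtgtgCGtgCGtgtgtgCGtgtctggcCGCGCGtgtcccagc

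Of the 8 genes, 6 were matched in the promoter table. The Zic1 promoter held 31 CpG, more than 89.4% of the 32851 promoters in the table, whose median was 7. The Zic4 promoter held 8 CpG and the promoters of Meis1 and Meis2 held 15 and 13. Those of Zic5 and Meis3, not shown, held 15 and 21. Zic1 and Zic4 thus differed in CpG content as well as in level, and a link between CpG content and level was not tested. The GENCODE vM1 annotation begins Zic4 at 91257251, upstream of the RefSeq start used for its window. The Meis2 window stands at an inner start, 115890355, which lies 2825 bases downstream of the outermost start in the deposited files. Every Meis2 transcript listed from that inner start was at 0 in all 5 samples. The Meis2 transcripts above 0 start at 115890794 or 115893180, outside the window, so its sequence is not that of a start with measured RNA. The Zic1 window stands 31 bases downstream of the outermost Zic1 start. On both strands, the letters TGACAG, a MEIS core, were found in the promoter of Zic4 and in 19.2% of all promoters, and TGATTGAT, bound by PBX and HOX together, in none of the 6 and in 0.746% of all. CAGCAGG, a ZIC core, was in none of the 6 and in 10.5% of all. CCAAT was found in Zic1, Meis1 and Meis2 and in 37.4% of all, TATAAA in Meis2 and in 13.6%, and CACGTG in Zic1 and in 7.15%.

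Zic1, a regulator of neural progenitors and of the cerebellum, lies at chr9:91255183-91260637 (mm9, minus strand). Its level was 20.4 and 16.6 FPKM in NSC replicates 1 and 2 and 0 in all 3 STO replicates. The groups were fully apart, and the NSC values rested on about 2150 and 1911 fragments, as implied by the deposited confidence intervals. The difference in log2(FPKM + 1), STO minus NSC, was -4.28 (SE 0.088, limma adjusted p = 5.64e-08). No fold change is given for genes listed at 0.

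Zic2, whose loss in people and mice is known to disturb the division of the forebrain into hemispheres, lies at chr14:122874606-122879550 on the plus strand. It was measured at 12.7 and 13.4 FPKM in NSCs and listed at 0 in each STO replicate. Its NSC replicates differed from each other less than those of Zic1 did. The log2(FPKM + 1) difference was -3.81 (SE 0.048, limma adjusted p = 8.96e-09).

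Zic5, the partner of Zic2 on chromosome 14 (chr14:122858382-122864880, minus strand), has a known role in neural crest. Its level was 2.62 and 3.19 FPKM in NSCs and 0.0186, 0 and 0 FPKM in STO cells. The value in STO replicate 1 corresponds to 1 fragment. Every STO value was below both NSC values, and the difference was -1.95 on the log2(FPKM + 1) scale (SE 0.069, limma adjusted p = 7.08e-07).

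Zic4 (chr9:91263810-91284186, plus strand), the neighbour of Zic1 and known with it for its role in the cerebellum, was the lowest of the ZIC members. It reached 0.233 and 0.327 FPKM in NSCs, from about 30.0 and 45.8 implied fragments, and was listed at 0 in the 3 STO replicates. Both NSC replicates were above every STO replicate, but the gene stayed below the expression minimum of the test. In GENCODE vM1 the Zic4 gene begins at 91257251, inside Zic1 on the opposite strand. The deposited Zic1 and Zic4 loci lie 3172 bases apart, so the Zic4 level given here does not include that shared stretch, which lies in the Zic1 locus. Whether strand was used in counting is not given in the sources used here, so reads in that stretch cannot be assigned with certainty.

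The ZIC genes stood in neighbouring pairs transcribed away from each other. In the deposited coordinates, 3172 bases separated Zic1 from Zic4 and 9725 bases separated Zic5 from Zic2. In both pairs the levels of the partners were unequal in NSCs. Summed over the 4 ZIC members, the level was 36.0 and 33.5 FPKM in NSCs and 0.0186, 0 and 0 FPKM in STO cells. Zic1 made up 56.7% and 49.4% of the NSC sum and Zic2 35.4% and 40.1%, so these genes together held most of it.

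Because ZIC genes are also used in the meninges, 6 meningeal markers were read beside them. Their sum was 23.5 and 23.8 FPKM in NSCs, of which Ptgds gave 20.5 and 21.2 FPKM and Foxc1 2.87 and 2.48 FPKM. Lum and Dcn were listed at 0 in both NSC replicates, and Foxc2 and Crabp2 were at most 0.177 FPKM there. In STO cells the sum was 184 to 193 FPKM. Dcn gave 174 to 184 FPKM of it, Foxc1 5.31 to 5.78 FPKM and Ptgds at most 0.0361 FPKM. The 6 astrocyte and oligodendrocyte markers summed to 138 and 142 FPKM in NSCs, mainly Mbp, and at most 1.22 FPKM in STO cells. Gfap, which the paper used as a negative control in its RT-PCR of NSCs, was at 15.9 and 16.9 FPKM in NSCs. Neuron markers summed to 19.2 and 17.6 FPKM in NSCs and 7.84 to 8.61 FPKM in STO cells. Nearly all of the STO sum was Tubb3, at 8.57, 7.84 and 8.49 FPKM. Tubb3 was at 9.25 and 8.14 FPKM in NSCs and did not pass (limma adjusted p = 0.477). The other neuron markers were at most 0.0430 FPKM in STO cells. These glial and neuronal marker sums, like the ZIC genes, Meis2 and Meis3, were lower in STO cells, and their part in these results was not tested.

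**Figure D1:**
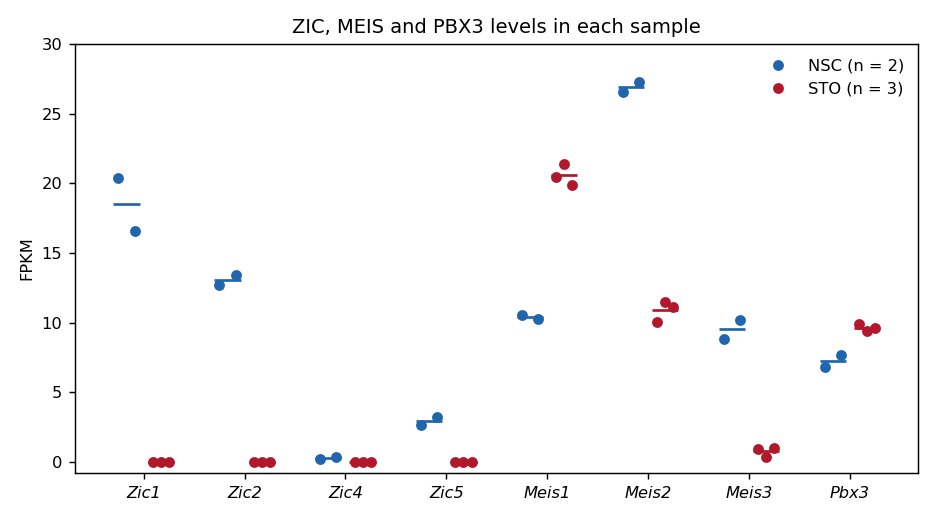
Level of each of the 8 genes in FPKM (vertical axis) in the 2 NSC replicates (blue) and the 3 STO replicates (red), with points for samples and a line at each mean. The ZIC genes lie at or near 0 in every STO replicate, Meis1 rises from 10.4 to 20.6 FPKM on average, and Meis2 falls from 26.9 to 10.9.

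Meis1, a TALE factor known for its part in blood stem cells and limb patterning, lies at chr11:18780431-18918972 on the minus strand. Its level was 10.5 and 10.3 FPKM in NSCs and 20.5, 21.4 and 19.9 FPKM in STO cells. All 3 STO replicates were above both NSC replicates, and the STO mean was 1.98 times the NSC mean. The log2(FPKM + 1) difference was 0.92 (SE 0.054, limma adjusted p = 8.44e-06).

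Meis2 (chr2:115687000-115893180, minus strand), known from the developing striatum and as a neuronal fate factor, had the highest NSC level of the 8 genes. It was measured at 26.5 and 27.3 FPKM in NSCs and at 10.0, 11.5 and 11.1 FPKM in STO cells. The groups did not overlap, and the mean was 2.47 times higher in NSCs. On the log2(FPKM + 1) scale the difference was -1.23 (SE 0.069, limma adjusted p = 6.14e-06).

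Meis3 (chr7:16760744-16771857, plus strand), known as a hindbrain regulator, was measured at 8.84 and 10.2 FPKM in NSCs and at 0.913, 0.357 and 0.965 FPKM in STO cells. Each STO value was far below both NSC values, and the NSC mean was 12.8 times the STO mean. The STO values rested on only about 22.3, 12.2 and 37.4 implied fragments and STO replicate 2 was the lowest. The difference in log2(FPKM + 1) was -2.61 (SE 0.170, limma adjusted p = 1.37e-05). The STO mean of 0.745 FPKM lay below the minimum for testing, so the direction was fixed by the filter.

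Pbx3 (chr2:34026977-34227565, minus strand), a PBX factor known to be needed for breathing rhythm, differed least among the 7 tested members. Its level was 6.79 and 7.63 FPKM in NSCs and 9.89, 9.42 and 9.60 FPKM in STO cells. The ranges did not overlap, with an STO mean of 1.34 times the NSC mean and a log2(FPKM + 1) difference of 0.37 (SE 0.064, limma adjusted p = 0.00163).

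Within the MEIS family, the gene that led differed between the cell types. The sum of Meis1, Meis2 and Meis3 was 45.9 and 47.7 FPKM in NSCs and 31.4, 33.2 and 32.0 FPKM in STO cells. Meis1 made up 22.9% and 21.5% of this sum in NSCs and 65.2%, 64.4% and 62.2% in STO cells. Meis2, by contrast, made up 57.8% and 57.1% in NSCs and 31.9%, 34.6% and 34.8% in STO cells. Meis3 added 19.3% and 21.4% in NSCs but 1.08% to 3.02% in STO cells. The level of Meis1 relative to Meis2 was thus 0.397 and 0.376 in NSCs and 2.04, 1.86 and 1.79 in STO cells, with no overlap; these shares restate the gene levels above and were not tested separately.

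**Figure D2:**
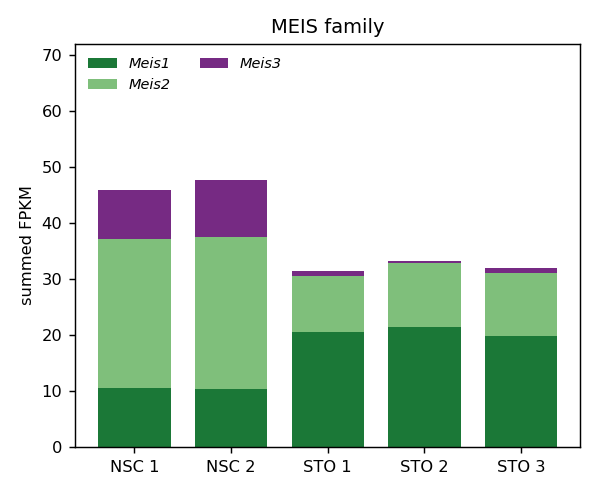
Summed FPKM (vertical axis) of the MEIS genes in each NSC and STO replicate, with stacked colours for the genes. Meis2 is the largest segment in both NSC replicates and Meis1 in all 3 STO replicates, and the sum is 45.9 and 47.7 FPKM in NSCs and 31.4 to 33.2 FPKM in STO cells.

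The PBX relatives Pbx2 and Pbx4 were compared beside Pbx3. Pbx2, broadly expressed in embryos, was higher in STO cells, with 12.3 and 9.98 FPKM against 18.7, 17.9 and 18.4 FPKM (0.67 in log2(FPKM + 1), limma adjusted p = 0.000437). Pbx4, best known from testis, moved the other way, from 8.28 and 8.71 FPKM in NSCs to 1.88, 1.78 and 1.89 FPKM in STO cells (-1.74, limma adjusted p = 3.46e-07).

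In the order of levels within NSCs, Meis2 came first with a mean of 26.9 FPKM, followed by Zic1 (18.5 ± 2.72, SD, n = 2), Zic2 (13.1 ± 0.502), Meis1 (10.4 ± 0.190), Meis3 (9.52 ± 0.958), Pbx3 (7.21 ± 0.595), Zic5 (2.90 ± 0.407) and Zic4 (0.280 ± 0.0659). Neighbours in this order had separate ranges, but Meis1 and Meis3 were close, with the lowest Meis1 value at 10.27 and the highest Meis3 value at 10.20 FPKM. In STO cells the order was Meis1 (20.6 ± 0.764, SD, n = 3), Meis2 (10.9 ± 0.759), Pbx3 (9.63 ± 0.237) and Meis3 (0.745 ± 0.337), with separate ranges. The ZIC genes followed at or near 0, and their ranges overlapped. Meis1 was higher than 84.1% of all genes in STO cells, and in NSCs Zic1 was higher than 83.1% and Meis2 than 87.9%.

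The genes of the files that followed the 5 sample values most closely were found by the root mean square difference of log2(FPKM + 1). For Zic1 these were Rnf144a (0.048), Cend1 (0.049) and Agt (0.084), each at 17.5 to 19.6 FPKM in NSCs and at most 0.0241 FPKM in STO cells. For Meis1, Dvl2 (0.030) and Wipf1 (0.050) were among the 3 nearest. This measure uses only 5 samples of 2 cell types, so it ranks genes by level and difference alone.

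The 8 genes were listed with 28 RefSeq transcripts, of which 18 were above 0 in at least 1 sample and 10, all of Meis2, were at 0 in every sample. A gene's fragments are divided among its transcripts by estimation where exons are shared, so these values are less certain than the gene sums. Of the 15 transcripts that reached 1 FPKM on average in a cell type, 4 passed as higher and 9 as lower in the STO line, whereas the shares were 38.1% and 39% among all 16257 transcripts tested. Some reached this minimum in 1 cell type alone, so their direction was fixed by the filter. These were the tested transcripts of Zic1, Zic2, Zic5 and Meis3, NM_010789 of Meis1, and NM_001159567 and NM_001159568 of Meis2.

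Meis1 was represented in NSCs by NM_001193271 alone, at 10.5 and 10.3 FPKM, which stood at 15.8, 16.8 and 14.9 FPKM in STO cells (0.56 in log2(FPKM + 1), limma adjusted p = 0.00113). The other Meis1 transcript, NM_010789, was listed at 0 in both NSC replicates and measured at 4.71, 4.55 and 4.98 FPKM in STO cells, 23.0%, 21.3% and 25.1% of the Meis1 level there (2.52, limma adjusted p = 7.19e-06). The higher Meis1 level in STO cells was thus seen in both transcripts.

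Meis2 showed transcripts listed in 1 cell type and at 0 in the other. NM_001159567 was at 5.09 and 5.25 FPKM in NSCs and 0 in STO cells (-2.63, limma adjusted p = 5.19e-06). NM_001159568, by contrast, was at 0 in NSCs and at 2.06, 2.83 and 2.32 FPKM in STO cells (1.76, limma adjusted p = 0.000152), although Meis2 as a whole was lower there. The most abundant Meis2 transcript of NSCs, NM_001136072, went from 12.1 and 11.8 FPKM to 2.17, 4.91 and 3.81 FPKM (-1.53, limma adjusted p = 0.00620), a call that was lost without NSC replicate 1 (adjusted p = 0.0712) or NSC replicate 2 (adjusted p = 0.0686). NM_010825 was at 5.43 and 6.12 FPKM in NSCs and 4.02, 3.75 and 2.90 FPKM in STO cells (-0.58, limma adjusted p = 0.0137), and was also not called without NSC replicate 1 (adjusted p = 0.0706) or 2 (adjusted p = 0.115). NM_001346047 was at 3.94 and 4.08 FPKM in NSCs and 1.79, 0 and 2.10 FPKM in STO cells, and it did not pass (adjusted p = 0.0889) unless STO replicate 2 was left out (limma adjusted p = 0.00319).

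The 3 Meis3 transcripts tested all reached the minimum through NSCs alone, so that all were lower in STO cells was fixed by the filter. NM_008627, the most abundant, went from 5.17 and 4.35 FPKM to 0.518, 0 and 0.571 FPKM (-2.10, limma adjusted p = 0.00103). For Pbx3, NM_001290576 was at 2.65 and 3.44 FPKM in NSCs and 4.53, 4.36 and 5.07 FPKM in STO cells (0.49, limma adjusted p = 0.0142), but was not called without NSC replicate 1 (adjusted p = 0.0690). NM_016768 was at 4.14 and 4.20 FPKM against 5.36, 5.06 and 4.53 FPKM and did not pass (limma adjusted p = 0.0629), except under quantile normalization or without STO replicate 3 (limma adjusted p = 0.0248). The difference in Pbx3 therefore could not be placed firmly in a given transcript.

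**Figure D3:**
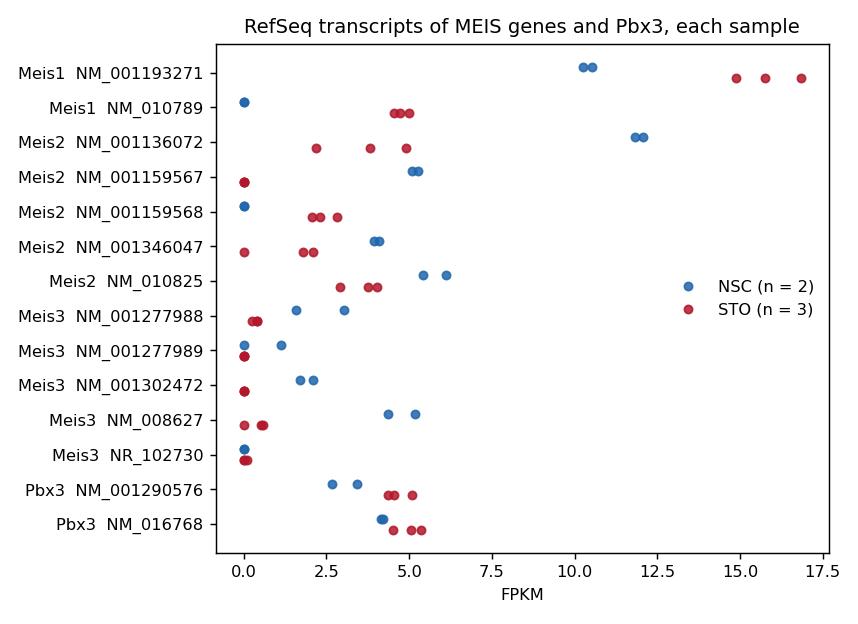
FPKM (horizontal axis) of each RefSeq transcript of Meis1, Meis2, Meis3 and Pbx3 that was above 0 in any sample, with a point for each NSC replicate (blue, n = 2) and each STO replicate (red, n = 3). NM_010789 of Meis1 and NM_001159568 of Meis2 are above 0 in STO cells alone, and NM_001159567 of Meis2 in NSCs alone.

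Related genes were described to place the 8 genes among their relatives. Of 20 genes (6 GLI and GLIS genes, 13 other TALE genes and the PBX-binding protein gene Pbxip1), 17 were tested. In the STO line 13 passed as higher and 4 as lower, beside 41.9% and 43.7% of all genes tested. Their median difference was 0.95 in log2(FPKM + 1). Of the 6 GLI and GLIS zinc finger genes, 5 were higher in STO cells, where the tested ZIC genes were lower. This contrast was partly fixed by the filter. The tested ZIC genes entered through NSCs alone, and Gli3 and Glis1, averaging 0.122 and 0.688 FPKM in NSCs, through STO cells alone. The largest difference was that of Gli3, a mediator of Hedgehog signalling, at 0.0830 and 0.162 FPKM in NSCs and 13.7, 14.0 and 11.1 FPKM in STO cells (3.63, limma adjusted p = 2.76e-07). Glis3 (1.97), Glis1 (0.97) and Gli2 (0.95) were also higher on the log2(FPKM + 1) scale.

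Among the 13 other TALE genes, 8 passed as higher in the STO line and 3 as lower, beside 41.9% and 43.7% of all genes tested. The largest differences were those of Irx2 and Irx1, Iroquois genes of regional patterning. Irx2 was at 0.0601 and 0.0439 FPKM in NSCs and 25.8, 24.8 and 24.7 FPKM in STO cells (4.63, limma adjusted p = 6.60e-09), and Irx1 (4.19), Irx5 (2.95) and Irx3 (0.87) were higher as well, while Irx4 and Irx6 were not tested. Tgif1, a repressor in TGF-beta signalling, was also higher in STO cells (2.52). Irx2, Irx5, Irx3 and the TALE gene Mkx averaged below the minimum for testing in NSCs, so their direction was fixed by the filter. Pknox1, a TALE partner of PBX related to MEIS, was at 11.1 and 11.5 FPKM in NSCs and 9.12, 9.40 and 8.89 FPKM in STO cells (-0.28, limma adjusted p = 0.00269). Pbxip1, whose protein binds PBX and hinders its DNA binding, was at 72.5 and 71.3 FPKM in NSCs and 1.65, 1.99 and 1.66 FPKM in STO cells (-4.72, limma adjusted p = 1.60e-08).

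**Figure D4:**
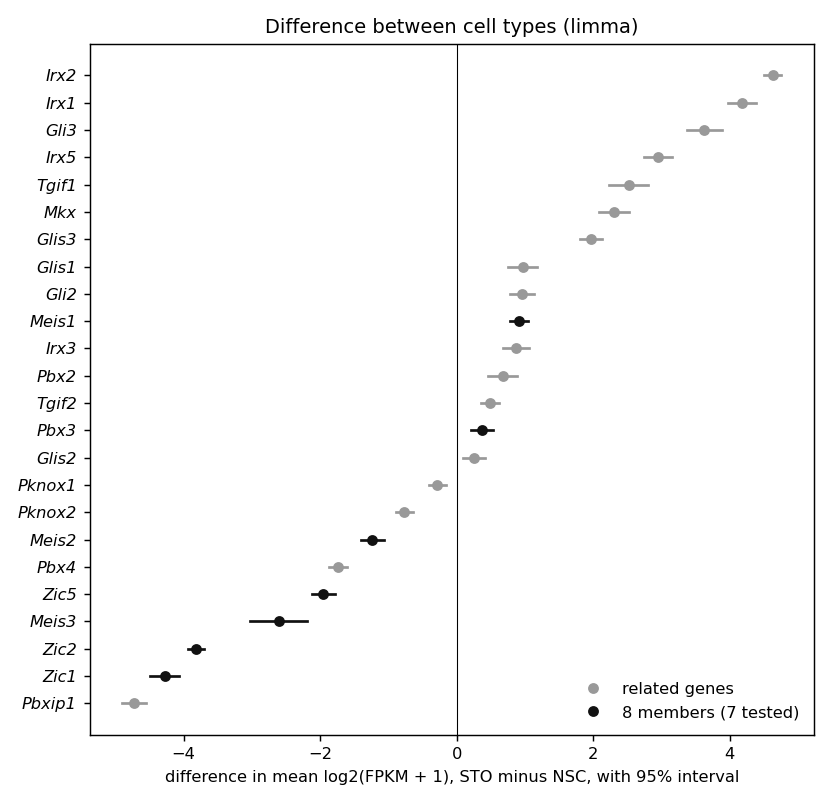
Difference in mean log2(FPKM + 1), STO minus NSC (horizontal axis), with 95% intervals from limma, for the 7 tested members (black) and the 17 tested related genes (grey). Zic1, Zic2, Zic5, Meis2 and Meis3 lie left of 0 and Meis1 and Pbx3 right of it, with Meis1 at 0.92 and Pbx3 at 0.37.

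The HOX genes themselves, with whose proteins MEIS and PBX bind, were near 0 in NSCs. All 39 HOX genes were below 0.1 FPKM in both NSC replicates, 31 of them at 0, and their sum was 0.114 and 0.0218 FPKM in NSCs against 93.9, 94.1 and 89.6 FPKM in STO cells. Of the 39, 19 reached the minimum for testing, which they could do only through STO cells, so that all 19 passed as higher there was fixed by the filter. Hoxa5, which patterns the neck and thorax, was at 0 in NSCs and 18.5, 18.6 and 18.3 FPKM in STO cells (4.28, limma adjusted p = 6.79e-09). Hoxa3 (3.77), Hoxa2 (3.77) and Hoxb9 (3.16) followed, and the locus of Hoxa3 overlaps other HOX genes, which limits the certainty of its value. The MEIS genes and Pbx3 were thus measured at 6.79 FPKM or more in NSC libraries in which the HOX genes were near 0.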

How the data were processed

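RNA-seq of 2 NSC and 3 STO samples was used. Per the study's methods, stranded mRNA libraries were sequenced as paired ends, trimmed, aligned with Hisat2 (mm9) and given transcript levels by Cufflinks 2.2.1 from RefSeq. The authors deposited FPKM values with confidence bounds for 40201 transcripts, already scaled for length and depth; no counts were used. Taking each bound as 2 Poisson SDs implied 15223341 to 22271895 fragments per sample, which limits the precision of low values.

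Symbols came from a GRCm38.p6 RefSeq table used for names only (39951 transcripts matched, 99.4%), and transcripts of a symbol at overlapping loci were summed. Cell types were compared using R 4.3.3 and its package limma 3.58.1, in which lmFit was followed by eBayes with a trend, on log2(FPKM + 1), which understates changes of low genes, and tested on simulated data. Tables and figures used Python 3.11.15 with pandas 2.3.3 and matplotlib 3.10.9. Alternatives changed the pseudocount, filter, normalization, trend, replicates, replicate block, transcript sums and a minimum effect. Members and gene lists were chosen with earlier results of these data known. Named were all 8 members, Pbx2, Pbx4 and Pknox1, up to 4 genes per further list with the largest non-overlapping differences, and the 3 genes nearest to Zic1 and to Meis1. Some listed genes are not reported here and were left out of the lists and sums.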

Additional observations from a re-analysis of the deposited data

How the results depend on the processing

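Of 127 values of 10 single genes under 13 settings, 123 kept their direction and call. Another 4 kept the direction but not the call, and 0 reversed. The settings without the filter, without the trend or with a minimum effect keep the same log2 difference, so they could not reverse a direction. In the main test the filter also fixed the direction of Zic1, Zic2, Zic5 and Meis3. Apart from the smaller pseudocount of 0.1, the log2(FPKM + 1) difference ranged from -4.42 to -4.13 for Zic1, from 0.87 to 0.94 for Meis1, from -1.29 to -1.18 for Meis2, from -2.70 to -2.44 for Meis3 and from 0.30 to 0.45 for Pbx3. With an absolute log2 difference of at least 1 required as well, 2103 genes passed as higher and 2617 as lower, 0 members and 2 member transcripts were higher, and 7 related genes were higher and 2 lower, since Meis1 and Pbx3 lie below that size. With no filter on low values, Zic4 was also lower in STO cells (-0.36, limma adjusted p = 0.000314), which made 6 members lower. Leaving out each replicate in turn left 4704 to 5065 genes higher and 4900 to 5253 lower, with 2 members higher and 5 lower each time. The replicate numbers 1 and 2 are shared by both cell types, but same-numbered samples hardly deviated together (correlations of 0.011 and 0.060). With the replicate block, 4994 genes were higher and 5252 lower, 2 members were higher and 5 lower, and 3 rather than 4 member transcripts were higher, NM_001290576 of Pbx3 no longer being called. Depth limits Zic4 and the STO values of Zic5 and Meis3, which rest on few fragments.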

Other observations

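Non-coding transcripts were listed beside the Zic2 and Zic5 pair, and some were above 0 in NSCs. 2610035F20Rik, which lies between Zic5 and Zic2 (chr14:122869599-122874421), was measured at 0.609 and 0.404 FPKM in NSCs and listed at 0 in the 3 STO replicates. Gm5089 transcript NR_033326, on the other side of Zic5 (chr14:122764901-122850368), was at 1.12 and 1.26 FPKM in NSCs and 0 in STO cells, whereas Gm5089 transcript NR_033325 was at 0 in NSCs and above 0 only in STO replicate 3 (0.0145 FPKM). Pcca transcript NR_153443 was at 0 in all 5 samples. The NSC values are low against the 13.1 FPKM of Zic2. The transcript that overlaps the Meis2 locus, G630016G05Rik, was listed at 0 in all 5 samples.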
